A study of Homo sapiens with 2 samples.

Results

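The hypoxia and VEGF axis was examined as 10 genes of the oxygen-sensing pathway: HIF1A, EPAS1, ARNT, EGLN1, EGLN2, EGLN3, VHL, HIF1AN, VEGFA and CA9. A peak of N6-methyladenosine (m6A) was counted for a gene when its summit lay within the genomic span of that gene in RefSeq (hg38), whatever gene name the authors gave the peak. By this rule 17 peaks of the 39801 in the deposited list belonged to 8 of the 10 genes. The material was HCCLM3, a human hepatocellular carcinoma line, of wild-type genotype. It was measured with 1 library of RNA captured by an m6A antibody (RIP) and 1 library of input RNA. The labels name no treatment and no oxygen level, and each library stands alone in its group, so all values describe these 2 libraries and no test between conditions was made. Of the markers of the labelled tissue, 4 of 10 hepatocyte genes held a peak, APOB, HNF4A and FOXA2 among them, and ALB, APOA1, APOA2, TTR, SERPINA1 and CYP3A4 held none. A peak was found in 1 of 5 endothelial markers (PECAM1, with 4 peaks), and in 0 of 3 immune and 0 of 3 stromal markers. Over all protein-coding genes the share with a peak was 49.3%, so these small counts do not tell the cell type. A gene without a peak may still be expressed, since the list shows antibody capture and not RNA level.

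Cells sense oxygen through the hypoxia-inducible factors. When oxygen is plentiful, prolyl hydroxylases (the EGLN proteins) modify the HIF alpha subunits HIF1A and EPAS1, and VHL, the recognition subunit of a ubiquitin ligase, then marks them for destruction, while the asparaginyl hydroxylase HIF1AN blocks their contact with the coactivators p300 and CBP. When oxygen is scarce the alpha subunits persist, pair with ARNT and switch on genes such as VEGFA, the growth factor that drives new vessels, and CA9, a carbonic anhydrase of the cell surface. On mRNA, m6A is known to gather in 3' UTRs and near stop codons, and reader proteins such as YTHDF2 bind it and steer how long a message lasts or how well it is translated. The VEGF receptors are targets of lenvatinib, the kinase inhibitor named in the title of the series.

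Peaks were found in the genes of the HIF subunits, in 2 of the 3 prolyl hydroxylase genes, in VHL, HIF1AN and VEGFA, whereas EGLN3 and CA9 held none. Thus 8 of 10 genes (80%, 95% Wilson interval 49.0 to 94.3) held a peak, against 49.3% of 20033 protein-coding genes. The share over all genes was 52.3% among the 11906 genes with spans as long as those of the 10, from 7.23 to 89.3 kb. With peaks at a q-value under 0.05, the peak caller's adjusted p-value, 7 of the 10 remained (all of the 8 but HIF1AN), against 39.0% of all genes. With a q-value under 1e-5 there were 4 (ARNT, EGLN1, EGLN2 and VEGFA), against 28.5%, and with a fold of at least 4 there were 3 (ARNT, EGLN1 and VHL), against 30.9%. Leaving out intron peaks kept all 8, against 43.2%, and with exon and UTR labels alone 6 genes were left, against 33.1%. With peaks of more than 3 RIP fragments there were 7, against 46.3%, and with any overlap of peak and span 8, against 49.9%. For any peak, the interval on 10 genes is wide and holds the background share at its lower edge. At a q-value under 0.05 the interval (39.7 to 89.2) began just above the share of all genes, and held the 41.3% of genes of like span. Without intron peaks it (49.0 to 94.3) lay above both shares (43.2% and 46.5%). With each of the other settings given here it held the share of all genes. By the deposited gene names, described below, 9 of 10 genes had a peak, and the interval (59.6 to 98.2) lay above both shares (49.2% and 51.0%). With 10 genes, chosen with earlier results of these data known, the counts alone do not set them apart. The shares of all genes, here and for the lists below, were not limited to genes expressed in these cells. Genes without RNA, which can hold no peak, may lower them. Per length, the 10 genes held 4.68 peaks per 100 kb of span, against 2.45 over all protein-coding genes. The latter value sums all spans, longer genes included, and was not computed for the span range of the 10 or for expressed genes alone. The density was highest in the short genes EGLN2 (21.6), VEGFA (18.4) and VHL (16.8). It was 2.24 in EPAS1, the longest of the 10, while EGLN3 and CA9 held no peak.

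**Figure D1:**
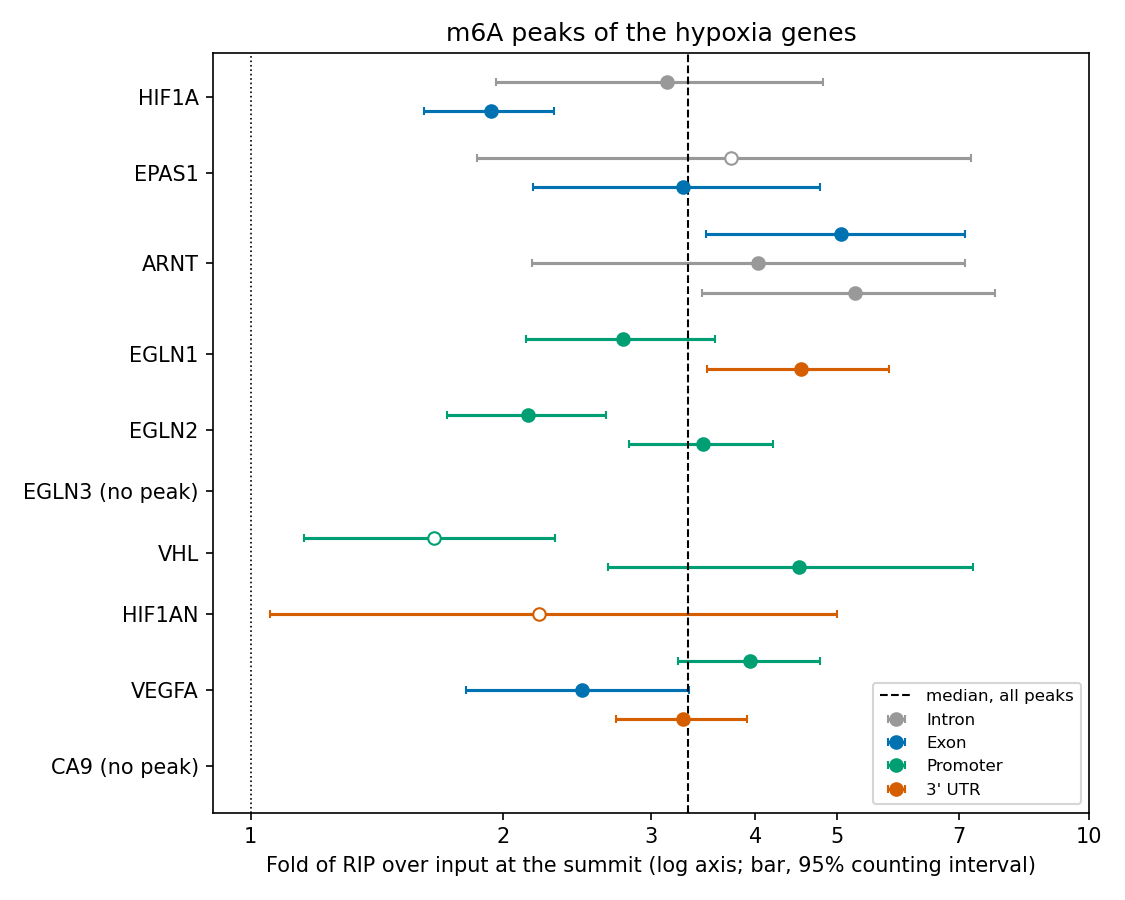
Fold of RIP over input at the summit (horizontal log axis) for each of the 17 peaks, with genes down the page and the peaks of a gene in order from its 5' end. Bars are 95% counting intervals, colours are the deposited region labels, open circles are peaks with a q-value of 0.05 or more, and the dashed line is the median of all 39801 peaks (3.33). The highest fold is 5.25 in ARNT, and EGLN3 and CA9 are empty.

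The peaks were of moderate fold over high input levels. The fold, a value of the authors' peak caller, was modelled as the scaled RIP level at a peak's highest point over an input level. The 1 added to each lowers it most where the input level is low. Its median over the 17 peaks was 3.28 (range 1.66 to 5.25), against 3.33 over all peaks. Without the added 1, the medians were 3.85 over the 17 peaks and 7.59 over all peaks, so the near equality rests on it. The count of RIP fragments and the input level behind each fold were recovered from the deposited values. The input level is the Poisson mean that met both the fold and the p-value. It was often not a whole number (0.326 at HIF1AN, lowest 0.246 over all peaks). It therefore cannot be read as a count of input fragments at the summit. Summits of these genes rested on a median of 32 RIP fragments, against 9 over all peaks, and the median input level was 8.0, against 0.888. Of the 17 peaks, 14 (82.4%) had a q-value under 0.05, against 48.8% of all peaks, and 1 rested on 3 fragments or fewer. All peaks include intergenic ones. Over the 30219 peaks in protein-coding spans, 53.7% had a q-value under 0.05. Their medians were 12 RIP fragments, an input level of 1.0 and a fold of 3.38. Among peaks with a q-value under 1e-5, the median fold was 3.95 over the 7 peaks of these genes, against 5.85 over all 10267. The 8 genes had a median best fold of 3.84, against 4.73 over all protein-coding genes with a peak. Intervals on a fold cover counting error of the RIP fragments only, with the input level held fixed. Without molecular identifiers, fragments may be copies of one molecule.

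**Figure D2:**
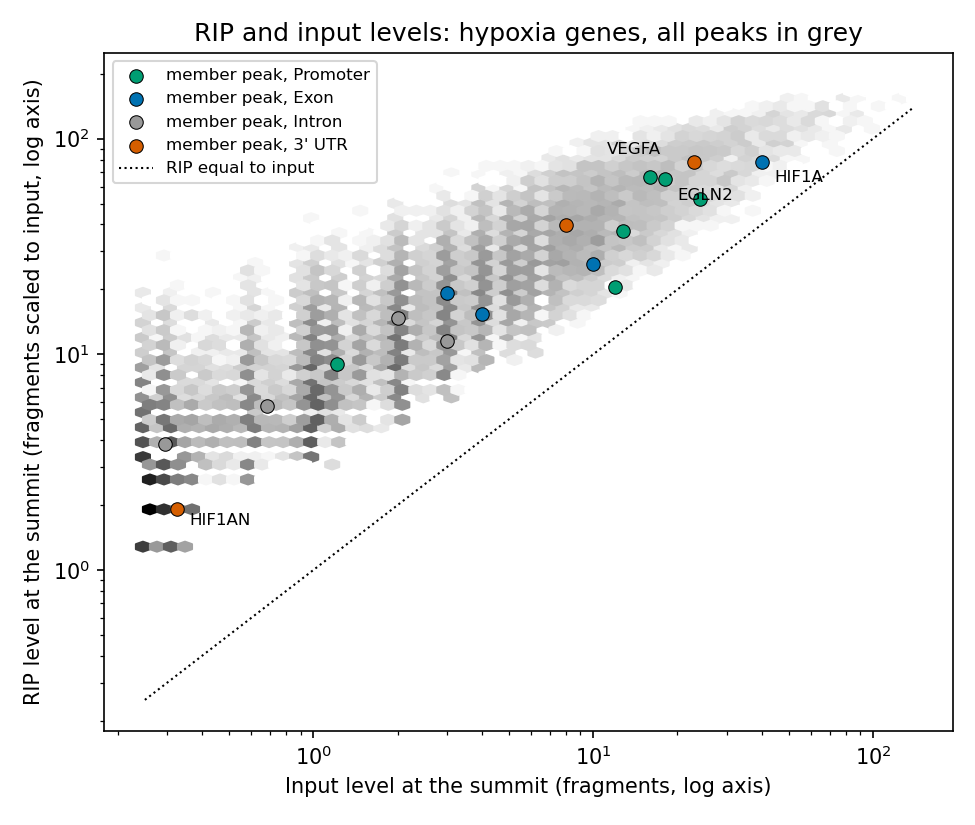
RIP level at the summit (vertical log axis, fragments scaled to the input library) against input level (horizontal log axis) for every peak, with all 39801 peaks as grey density and the 17 peaks of the hypoxia genes coloured by region label. The input level is the Poisson mean recovered for a peak, not a count of input fragments at its summit. The dotted line marks equal levels. The peak of HIF1A in exon 12 lies at an input level of 40.0, towards the right, and that of HIF1AN at 0.326, towards the left.

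Both HIF alpha genes carried one peak in intron 1 and one in a late exon. HIF1A, on chromosome 14 from 61695513 to 61748258, had its deeper peak in exon 12 of 15 (61740947 to 61741284). There 122 RIP fragments, equal to 78.3 after scaling to the input library, stood over an input level of 40.0, a fold of 1.93 (interval 1.61 to 2.30). Only 4.90% of all peaks had a lower fold, while 99.3% had a lower input level. The intron 1 peak of HIF1A (61712205 to 61712500) had 18 fragments, or 11.5 scaled, over an input level of 3.0, a fold of 3.14 (1.96 to 4.81). The intervals of the 2 peaks overlapped. The summit of the exon 12 peak also lies in HIF1A-AS3, a non-coding gene that shares the interval, and the deposited table named HIF1A-AS2 for it. The peak list carries no strand, so the transcripts cannot be told apart there.

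EPAS1, the alpha subunit known from vessels and kidney cancer, had a peak in exon 11 of 16 on chromosome 2 (46378739 to 46379036). It had 24 RIP fragments, or 15.4 scaled, over an input level of 4.0, a fold of 3.28 (2.17 to 4.78). Its summit lay 7862 bp from the 3' end of the gene, and that of the HIF1A exon peak 7210 bp from its 3' end, at 91.2% and 86.3% of the spans. The HIF1A exon peak stood over the higher input level (40.0, and 4.0 for EPAS1), and the intervals of both folds overlapped between 2.17 and 2.30. The intron 1 peak of EPAS1 (46336381 to 46336686) rested on 6 fragments, had a fold of 3.74 (1.86 to 7.24) and a −log10 q of 1.02, short of the 0.05 threshold. The deposited table gave the exon peak to LINC01820, a neighbouring non-coding gene.

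ARNT, the stable beta subunit that both alpha subunits need, held the 2 highest deposited folds of the axis. Without the added 1, the EPAS1 intron peak (13.0) was the highest, followed by the intron 2 peak of ARNT (8.48) and the second VHL peak (7.40). The EPAS1 value rested on 6 RIP fragments over an input level of 0.296, with a q-value of 0.0957. The input level of the ARNT intron 2 peak was 0.681. At such low input levels the added 1 changes the fold most, so this order rests on them, and it was given no intervals. The other ARNT peaks had 7.38 and 6.42. A peak in intron 5 of 20 (chromosome 1, 150837075 to 150837705) had 23 RIP fragments, or 14.8 scaled, over an input level of 2.0, a fold of 5.25 (3.45 to 7.71). It lay above 88.4% of intron peaks by fold, and the deposited table named CTSK, a neighbour, for it. The peak in exon 2 of 21 (150858091 to 150858394) had 30 fragments, or 19.2 scaled, over an input level of 3.0, a fold of 5.06 (3.50 to 7.12). The remaining ARNT peak, in intron 2 (150853861 to 150854175), had 9 fragments and a fold of 4.03 (2.17 to 7.12). The 3 intervals overlapped, and no peak lay in the last 20% of the gene, in contrast to HIF1A and EPAS1.

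**Figure D3:**
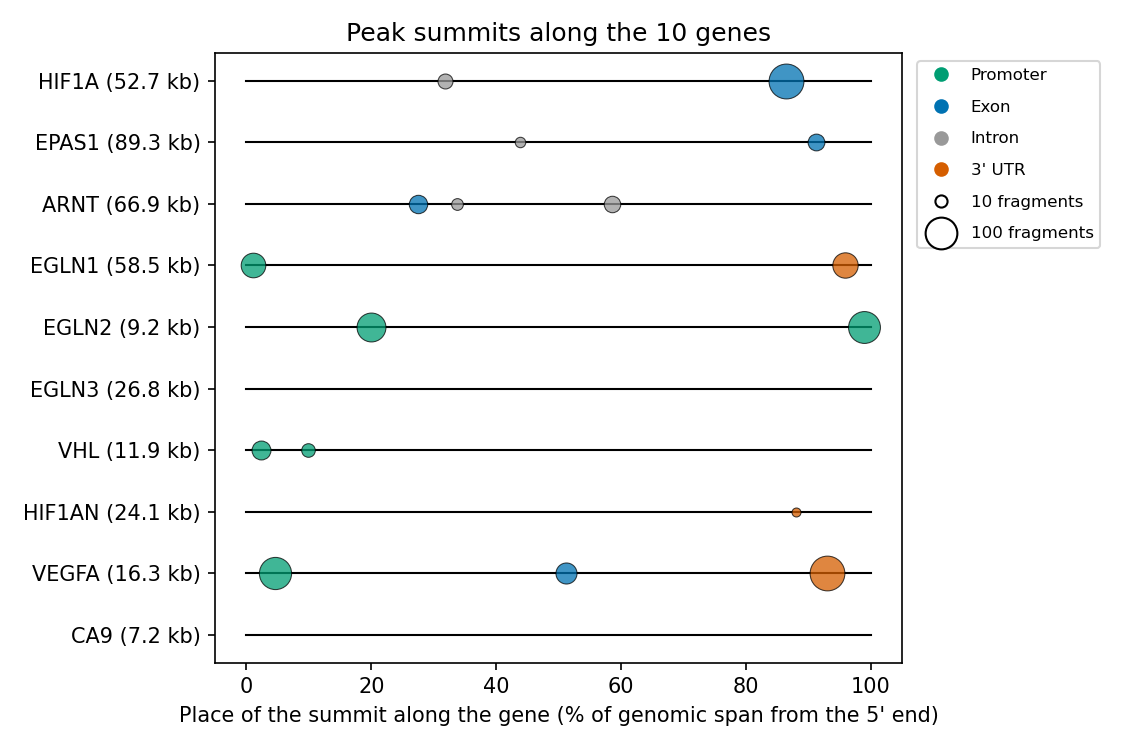
Place of each peak summit along its gene, as a percentage of the genomic span from the 5' end (horizontal axis), for the 10 genes down the page with their spans in kb. Circle area grows with the number of RIP fragments and colour gives the deposited region label. Of the 17 summits, 5 lie in the first 20% of a span and 6 in the last 20%, and the second EGLN2 summit, labelled promoter, lies at 98.9% of the span.

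Of the prolyl hydroxylase genes, EGLN1 and EGLN2 each carried a peak towards either end and EGLN3 carried none. EGLN1, the main oxygen sensor among them, had a 3' UTR peak on chromosome 1 (231365777 to 231366380) with 62 RIP fragments, or 39.8 scaled, over an input level of 8.0. Its fold of 4.53 (3.50 to 5.78) was the highest of the 3 3' UTR peaks of the axis and above 57.2% of all 3' UTR peaks. The summit also lies in LOC107985360. A second EGLN1 peak lay near the 5' end (231421591 to 231421886, summit 574 bp from the start), with 58 fragments, or 37.2 scaled, over an input level of 12.7, a fold of 2.78 (2.13 to 3.58). The 5' fold was the lower of the 2, and the intervals met between 3.50 and 3.58.

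At the 3' end of EGLN2, on chromosome 19 from 40807996 to 40808585, 101 RIP fragments (64.8 scaled) stood over an input level of 18.0, a fold of 3.46 (2.83 to 4.20). The summit lay 102 bp inside the 3' end of EGLN2, although the deposited label is a promoter of the pseudogene CYP2T1P. The other peak (40800867 to 40801366) had 82 fragments, or 52.6 scaled, over an input level of 24.0, a fold of 2.14 (1.71 to 2.65). The 3' fold was the higher of the 2 and the intervals, which hold the input levels fixed, did not overlap. Both summits also lie in RAB4B-EGLN2, a read-through transcript with the upstream gene. EGLN3, the hydroxylase gene best known as a HIF target, held no peak in its 26.8 kb, and the nearest peak lay 58.4 kb away.

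VHL, the subunit that binds hydroxylated HIF, had 2 promoter-labelled peaks on chromosome 3. The one 274 bp from the start (10141852 to 10142394) had 32 RIP fragments, or 20.5 scaled, over an input level of 12, and a fold of only 1.66 (1.16 to 2.31). Its q-value was 1, and 0.364% of all peaks had a lower fold. The next (10142817 to 10143153) had 14 fragments, or 8.98 scaled, over an input level of 1.21, a fold of 4.51 (2.67 to 7.26) and a −log10 q of 2.51. The intervals of the 2, which hold the input levels fixed, did not overlap, and the weaker fold stood over the higher input level. HIF1AN, the asparaginyl hydroxylase gene, had a single peak, on chromosome 10 in the 3' UTR (100557011 to 100557306). It rested on 3 fragments over an input level of 0.326, with a fold of 2.21 (1.05 to 5.0) and a q-value of 1.

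VEGFA, the HIF target at the end of the axis, held 3 peaks, each with a q-value under 0.05, and the smallest p-value of the 17. The peak near its 5' end on chromosome 6 (43770482 to 43771430, summit 735 bp from the start) had 103 RIP fragments, or 66.1 scaled, over an input level of 16, a fold of 3.95 (3.23 to 4.77). Its −log10 p of 20.7 exceeded that of 93.3% of all peaks. The 3' UTR peak was the widest of the 17, at 1192 bp (43784607 to 43785798), and had 121 fragments, or 77.6 scaled, over an input level of 23, a fold of 3.28 (2.73 to 3.91). Between them a peak in exon 4 of 8 (43778492 to 43779194) had 41 fragments, or 26.3 scaled, over an input level of 10, a fold of 2.48 (1.81 to 3.33). Peaks therefore covered both ends and the middle of VEGFA, with overlapping intervals. CA9, whose product is widely used as a marker of hypoxia in tumours, held no peak in its 7.23 kb. The nearest peak outside it, 4.02 kb away, was assigned to TPM2 and had a fold of 1.34.

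By region label the 17 peaks were 6 promoter, 4 exon, 4 intron and 3 3' UTR peaks. Promoter labels made up 35.3% of them, against 15% of the 30219 peaks in protein-coding spans, and intron labels 23.5%, against 44.4%. Such a label reaches 3 kb from any transcript start and takes precedence over exon and UTR labels. All promoter-labelled peaks but that of EGLN1 lay in the short genes EGLN2 (9.24 kb), VHL (11.9 kb) and VEGFA (16.3 kb). In these a reach of 3 kb takes up much of the span. By the rule of choice, the 6 promoter-labelled summits lie inside the span of the gene. By position, 29.4% of the summits fell in the first 20% of a span, against 17.8% over all protein-coding genes, and 35.3% in the last 20%, against 32.8%. The first EGLN2 summit, at 19.9%, lies just inside the first stretch. Neither the label shares nor the position shares over all genes were matched by span. Fold varied with input level over the whole list, so each peak was also placed among peaks of like input, in classes chosen after the values were seen. At input levels of 16 and above, the 5 peaks of HIF1A, EGLN2 and VEGFA had a median fold of 3.28, against 2.78 over 1565 peaks. At 4 to under 16, the 5 peaks of EPAS1, EGLN1, VHL and VEGFA had a median of 2.78, against 3.92 over 6734. At 1 to under 4, the 4 peaks of HIF1A, ARNT and VHL had a median of 4.79, against 4.03 over 11312, and below 1 the 3 peaks of EPAS1, ARNT and HIF1AN had 3.74, against 2.86 over 20190. The median of these genes was thus the higher in 3 of the 4 classes. Of the 17 peaks, 8 were below the median of their class.

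The letters that HIF reads were located in reference promoters of these genes. The HIF dimer binds the hypoxia response element, whose core is ACGTG or GCGTG. RefSeq windows (GRCh38.p14) from 250 bases before to 50 bases after a start were given for 8 of the 10 genes, all but VHL and VEGFA. Of the genes with a promoter-labelled peak, only EGLN1 and EGLN2 thus had windows. On either strand, 5 of the 8 genes held a core (HIF1A, EPAS1, EGLN1, EGLN2 and CA9), in 5 of their 10 windows (50%), against 48.4% of all 35116 windows, a share near the background. ACGTG alone was in 21.4% of windows, and among these genes in those of EGLN1, EGLN2 and CA9. The stretches of 30 bases around these 3 cores are shown 5' to 3' on the strand of the gene, with the core in capitals. That of EGLN2 reads as a core on both strands, which overlap, and that of CA9 lies on the opposite strand. They are at chr1:231422284-231422313 (minus strand), chr19:40799130-40799159 (plus) and chr9:35673897-35673926 (plus).
EGLN1: ggggccgtggtgtACGTGcagagcgcgcag
EGLN2: gcggggcgcggtCACGTGcccaccgggcga
CA9: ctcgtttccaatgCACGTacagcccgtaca
Counted back from the first transcribed base, the cores begin at -13 in EGLN1, -49 in EGLN2 and -18 in CA9. No m6A peak overlapped any of the 10 windows of these genes. Most of each window lies before the start, outside the transcript that begins there, so this absence says little about m6A. The promoter-labelled peaks of EGLN1 and EGLN2 lay downstream of these stretches. Over the whole list, the summit of 182 of 5556 promoter-labelled peaks (3.28%) fell in a window of any gene.

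The deposited gene names and the gene spans differed for these genes. Of the 17 peaks, 12 carried the name of the gene that held them. The other 5 were named for HIF1A-AS2, LINC01820, CTSK, SPRTN (the EGLN1 3' UTR peak) and CYP2T1P. They included the peak of highest fold in each of ARNT, EGLN1 and EGLN2. In the deposited naming 9 of the 10 genes had a peak, against 49.2% of all protein-coding genes, with 4 peaks named for EGLN3, all outside its span.

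Other genes of the pathway were read from 4 lists. Of 25 genes listed as HIF regulators, 17 held a peak (68.0%), in 13 of them (52.0%) with a q-value under 0.05, against the 49.3% and 39.0% of all genes. The list has no stated source, and a role of each gene in HIF control, MAP1S included, was not tested. The highest folds were in MAP1S, a microtubule-associated protein gene (7.66, 6.12 to 9.47), SENP1, a SUMO protease gene (7.08, 4.31 to 11.1), the ubiquitin ligase gene SIAH1 (6.53, 5.27 to 8.0) and the histone demethylase gene KDM3A (6.49, 4.85 to 8.51). The summit in SIAH1 also lies in LONP2. HIF3A, ELOB, RBX1 and P4HTM were among those without a peak. The genes of the coactivators that HIF1AN keeps from HIF, named after their values were seen, were both called, CREBBP with 7 peaks (best fold 6.06, 4.79 to 7.57) and EP300 with 4 (4.96, 3.88 to 6.26).

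Genes of glycolysis that HIF activates held peaks in 7 of 20 cases (35.0%), all 7 with one at a q-value under 0.05, against 49.3% and 39.0% of all genes. They were led by PFKFB3, which makes an activator of glycolysis, with a fold of 6.26 (4.88 to 7.93) in its 3' UTR, followed by the lactate transporter gene SLC16A3 (4.18, 3.58 to 4.86), PFKP (3.98, 2.28 to 6.62) and PDK1, a kinase that restrains pyruvate use by mitochondria (3.85, 2.02 to 6.98). The summit in SLC16A3 also lies in CSNK1D. The genes without a peak, in list order, began with the glucose transporter gene SLC2A3, the hexokinase genes HK1 and HK2, and GPI. Of 24 other HIF targets, 14 held a peak (58.3%) and 11 at a q-value under 0.05 (45.8%), against the same shares of 49.3% and 39.0%. CITED2, with 1 peak, stands in this list and among the regulators and counts in both. CA12, a cell-surface carbonic anhydrase gene like CA9, led them with an intron 1 peak of fold 6.25 (4.47 to 8.51). ANGPTL4 reached a fold of 4.82 (3.11 to 7.20) and the vasodilator peptide gene ADM 4.73 (3.54 to 6.18). BNIP3, LOX, MXI1 and ANKRD37 held none.

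Among 9 VEGF ligands, receptors and co-receptors besides VEGFA, 5 held a peak (55.6%), in 3 of them (33.3%) with a q-value under 0.05, against 49.3% and 39.0% of all genes. These 3 were the co-receptor genes NRP1 (3' UTR, fold 7.60, 6.56 to 8.76, on 188 fragments) and NRP2 (3' UTR, 6.22, 3.49 to 10.5), and the ligand gene VEGFB (3.37, 2.86 to 3.95). PGF and the receptor gene FLT1 each had a best peak of fold 2.35 (1.12 to 5.32) on 3 fragments. VEGFC, VEGFD and the receptor genes KDR and FLT4 held none. The folds of NRP1, the highest of this list, and VEGFA at the 3' UTR, 7.60 and 3.28, had intervals that did not overlap. These intervals leave out the error of the input levels, 15 and 23, so a difference was not tested.

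**Figure D4:**
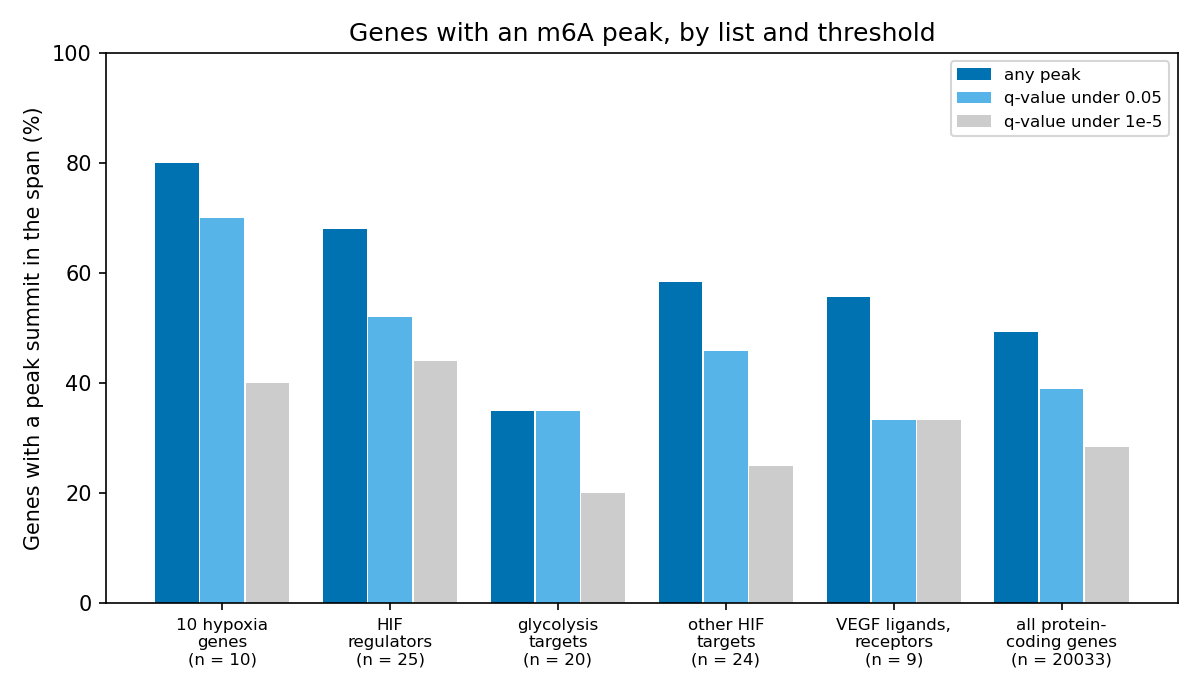
Percentage of genes with a peak summit in their span (vertical axis), for the 10 hypoxia genes, the 4 pathway lists and all 20033 protein-coding genes, with bars for any peak, a q-value under 0.05 and a q-value under 1e-5. The hypoxia genes stand at 80%, the glycolysis targets at 35.0% and all genes at 49.3% for any peak. The lists hold between 9 and 25 genes.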

How the data were processed

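The submitters' processing notes name HISAT2, MACS2 and hg38, with no versions; settings and threshold are not stated. Peaks came from 1 RIP against 1 input library, with no pooling. The authors deposited for each peak a score, a fold (a linear ratio of RIP to input), a −log10 p-value and a −log10 q-value. The last 2 column headers were damaged, and their content was read from the values: 99.99% of scores equal 10 times the −log10 p rounded down. The members and lists were chosen with earlier results of these data known.

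Positions are as deposited. Gene spans are those of GRCh38.p14 in RefSeq, and all 77 list genes matched (CITED2 stands in 2 lists). Each fold was modelled as scaled RIP fragments plus 1 over the input level plus 1, and each p-value as the upper tail of a Poisson distribution with the input level as its mean. At a scale of 0.642, whole fragments met both values for 100% of 39801 peaks within 0.001 of −log10 p; without scaling 1.32% were met. The 17 peaks each had 1 whole-number solution. Of 2000 peaks simulated with the same model and scale 100% were recovered, which checks the inversion and not the model. The factor makes the RIP library 1.56 times the input; total depth is not stated. Fold intervals are exact 95% Poisson intervals, and shares have 95% Wilson intervals. In each pathway list at most 4 genes are named for their fold, highest first, and at most 4 that lack a peak, in list order; some list genes enter the counts but are not reported singly here. Alternatives were thresholds on q-value, fold and fragments, region labels, overlap in place of summit, the deposited gene and a fold without the pseudocount. Python 3.11.15, scipy 1.17.1 and pandas 2.3.3 were used.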

Additional observations from a re-analysis of the deposited data

How the results depend on the processing

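The count of 8 genes with a peak stayed at 8 without intron labels and with any overlap of peak and span, and was 7 at a q-value under 0.05 or with more than 3 RIP fragments, 9 by the deposited gene and 6 with exon and UTR labels only. A q-value under 1e-5 left 4, and a fold of 4 or more left 3. The 17 peaks became 7 with the first of these settings, 5 with the second and 7 with exon and UTR labels only. The first left 28.5% of all protein-coding genes and the second 30.9%. For HIF regulators the 3 settings gave 44.0%, 36.0% and 44.0%, for glycolysis targets 20%, 10% and 20%, for other HIF targets 25%, 29.2% and 16.7%, and for VEGF genes 33.3%, 22.2% and 33.3%. VEGF genes also stood at 33.3% at a q-value under 0.05 and with more than 3 fragments. Each of these settings leaves fewer peaks by construction. Without the pseudocount the fold of the EPAS1 intron peak was 13.0 in place of 3.74, and the best folds were 8.48 in ARNT, 7.40 in VHL and 5.91 in HIF1AN. Depth limits the HIF1AN peak, on 3 fragments, and the EPAS1 intron peak, on 6. No paired analysis was possible because there was 1 library of each kind.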

Other observations

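The deposited table also named hypoxia genes for 7 peaks that lay outside their spans. The strongest, with 53 RIP fragments and a fold of 3.50 (2.65 to 4.55), lay 2.11 kb before the start of EGLN2 on chromosome 19 (40796758 to 40797084), within RAB4B, MIA-RAB4B and RAB4B-EGLN2. The 2 peaks named for EPAS1 lay in PRKCE, 112 and 215 kb before the EPAS1 start, each with 3 fragments and a fold of 2.35 (1.12 to 5.32). The 4 named for EGLN3 lay 58.4 to 190 kb before its start, in the non-coding gene LOC102724945, and rested on 2 to 4 fragments with folds of 1.83 to 2.86.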
